A study of Mus musculus with 13 samples.

Results

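The unfolded protein response and the folding machinery of the secretory pathway were described in the mouse incisor through 35 genes of the endoplasmic reticulum (ER), taken by name from the deposited count table of 34709 genes. All 35 were found and all passed the filter on low counts. They comprise 9 chaperones and co-chaperones, 5 lectins and disulfide isomerases, 7 genes of ER-associated degradation, 2 translocon genes, 3 stress sensors, 5 transcription factors and 4 genes known as targets of the factors ATF4 and CHOP. RNA was measured by poly-A RNA sequencing in whole lower incisors of male mice at postnatal day 5. The groups were wild-type controls (5 libraries) and the vitamin D receptor mutants VDRgem (3 libraries) and VDR-null (5 libraries). The VDRgem receptor is known to answer synthetic gemini ligands but not the hormone itself, and a functional receptor is known to be absent in VDR-null mice. The question was how incisor transcripts differ when vitamin D signalling is impaired in these ways. The labels give no further allele, strain, promoter or treatment. They call the incisors independent without naming the animal of each library, so the spread behind every p-value is that between incisors and may be partly technical.

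Proteins that enter the secretory pathway are folded in the ER by chaperones such as BiP (Hspa5), and glycoproteins are held by the lectins calnexin and calreticulin while isomerases form their disulfide bonds. When unfolded proteins build up, the sensors IRE1 (Ern1), PERK (Eif2ak3) and ATF6 act through XBP1, ATF4 and cleaved ATF6 to raise folding and disposal capacity and to lower translation. Ameloblasts and odontoblasts secrete large amounts of enamel and dentin matrix, and mutations that make matrix proteins misfold are known to cause ER stress in the tooth.

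The letters through which this response is known to act were read in the promoters, because several of the genes described below carry them. A RefSeq window from 250 bases before to 50 bases after the transcript start (GRCm38.p6) was found for 30 of the 35 genes. The ER stress response element (ERSE) was searched on both strands as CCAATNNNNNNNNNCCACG, where N is any base. It was present in 9 of 30 genes (30.0%) and in 0.137% of 27025 genes with a window. The 9 were Hspa5, Hsp90b1, Calr, Canx, Pdia6, Dnajc3, Creld2, Derl3 and Syvn1. The related ERSE-II, ATTGGNCCACG, was found in Herpud1 and Dnajb11, against 0.0444% of all genes. The amino acid response letters TGATGNAA, bound by ATF4 with C/EBP partners, stood in Asns, Chac1, Trib3 and Herpud1 (13.3% of the 30, against 4.51% of all genes). A further XBP1 and ATF6 element, TGACGTGG, was in no window of these genes and in 0.714% of all genes. CCAAT, which ERSE contains, was present by itself or within ERSE in 23 of the 30 (76.7%, against 41.1%). A match is a stretch of letters and not a measured binding site.

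The following stretches from 7 of these genes show what the letters look like, chosen because the genes are abundant in the incisor or come up in the comparisons, on the gene's strand from 5′ to 3′ with 10 bases on each side, and capitals mark the fixed letters of the element. Hsp90b1 has 2 ERSE matches, 1 in each direction. In Calr the element lies on the opposite strand, so its letters appear reversed and complemented. Herpud1 shows ERSE-II and Asns the amino acid response letters.
Hspa5, chr2:34772015-34772053, plus strand: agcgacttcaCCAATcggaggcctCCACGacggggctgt
Hsp90b1, chr10:86705523-86705666, minus strand: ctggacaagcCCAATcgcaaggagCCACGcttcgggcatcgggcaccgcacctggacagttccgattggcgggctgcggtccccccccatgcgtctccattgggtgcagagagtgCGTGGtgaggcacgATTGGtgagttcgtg
Calr, chr8:84847065-84847103, minus strand: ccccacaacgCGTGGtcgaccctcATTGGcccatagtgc
Canx, chr11:50325790-50325828, minus strand: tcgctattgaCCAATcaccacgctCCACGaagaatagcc
Pdia6, chr12:17266481-17266519, plus strand: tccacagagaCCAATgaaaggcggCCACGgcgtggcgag
Herpud1, chr8:94386367-94386397, plus strand: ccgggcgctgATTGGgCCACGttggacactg
Asns, chr6:7693215-7693242, minus strand: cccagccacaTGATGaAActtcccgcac

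Levels are given as CPM, a gene's count scaled to a common library total with TMM factors, which correct for the make-up of each library. They rest on totals of 20405188 to 87783466 counts. The tissue label was met by its defining genes, since the enamel gene Amelx was at 5525 CPM or more and the dentin gene Dspp at 14519 CPM or more in all 13 libraries. Vdr itself ranged from 142 to 180 CPM over the controls and from 204 to 281 CPM over the libraries labelled VDR-null, and was at 107, 205 and 179 CPM in VDRgem. Counts per gene include any altered transcript that is still made, so they do not check the labels, and groups are named here as labelled. Whole incisors were sequenced, so fewer cells of a type and less RNA per cell cannot be told apart in any value below.

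The control incisor held these transcripts at widely different levels. Per kilobase of exon, P4hb, the protein disulfide isomerase that is also a subunit of collagen prolyl hydroxylase, was highest at 436 ± 10.4 CPM per kilobase (SD, n = 5). Calreticulin (Calr) followed at 343 ± 26.3, and each of these 2 lay apart from the next gene in every control. Hspa5 at 180 ± 21.8 and Hsp90b1, which encodes the chaperone GRP94, at 180 ± 8.85 CPM per kilobase overlapped each other and lay above the fifth gene, Creb3l1. Creb3l1 encodes OASIS, a membrane-bound transcription factor known for collagen production in osteoblasts. It stood at 109 ± 16.6 CPM per kilobase and overlapped Pdia6 (108 ± 4.35), while Pdia6 overlapped Pdia4 (104 ± 4.61). Canx (74.9 ± 2.35) and Atf4 (72.0 ± 4.12) came next and did not differ beyond their spread, and Xbp1 followed at 52.4 ± 3.19. Of the 35 genes, 18 lay above the 90th percentile of level per kilobase among the 17837 genes tested. At the other end, Trib3 at 0.622 ± 0.134 and Derl3 at 0.461 ± 0.138 CPM per kilobase overlapped each other and lay below the rest.

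**Figure D1:**
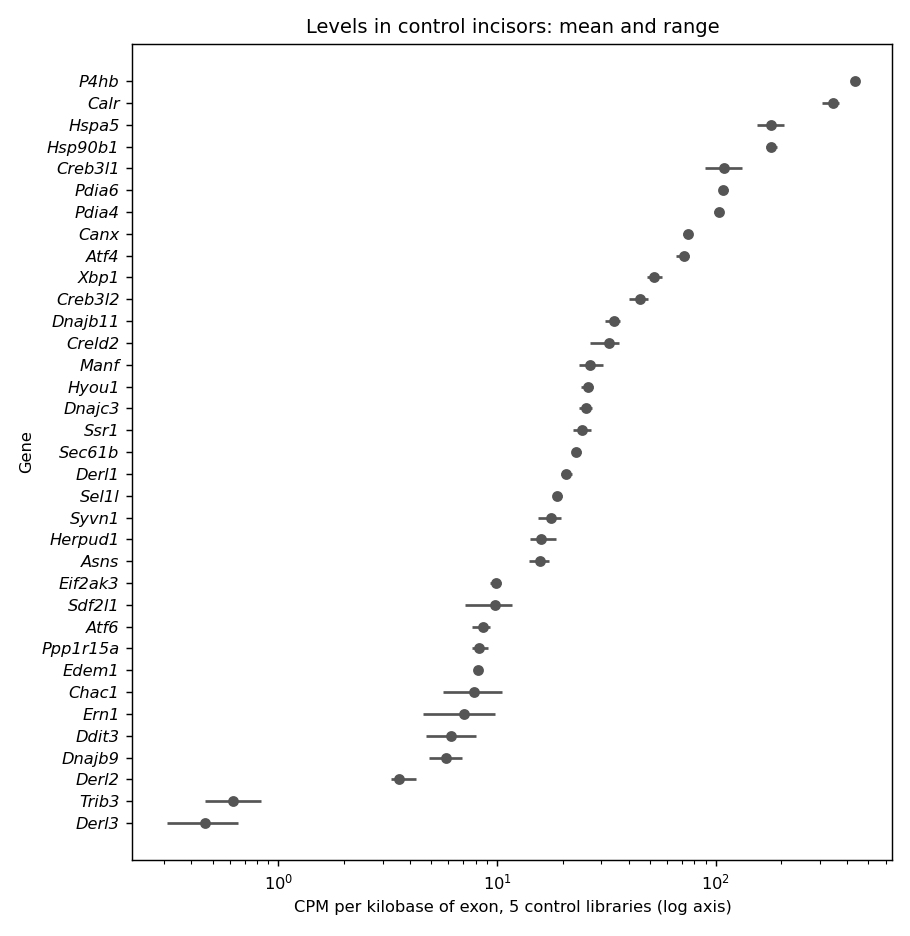
Level of each of the 35 genes in control incisors, in CPM per kilobase of exon on a log axis. Points are means and lines run from the lowest to the highest of 5 control libraries. P4hb and Calr lie above all others, and Trib3 and Derl3 lie below 1 CPM per kilobase.

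The genes also differed in how steady they were between controls. The median SD of log2 CPM was 0.11 over the 35 genes and 0.16 over all genes tested. Edem1, P4hb and Canx were the steadiest at 0.03, 0.03 and 0.05, and Ern1, Derl3 and Chac1 the most variable at 0.46, 0.42 and 0.39. Together the 35 genes took 0.688% to 0.755% of the counts in controls, 0.693% to 0.773% in VDRgem and 0.655% to 0.922% in VDR-null. The lowest and the highest of these shares both belonged to VDR-null libraries, number 5 and number 3. VDR-null 5 stood apart from the rest of its group, holding the group's lowest value for 25 of the 35 genes and its highest for none. For the comparisons that include VDR-null, counts of calls are given with and without this library. Fitted values of most single genes are given with it only.

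**Figure D2:**
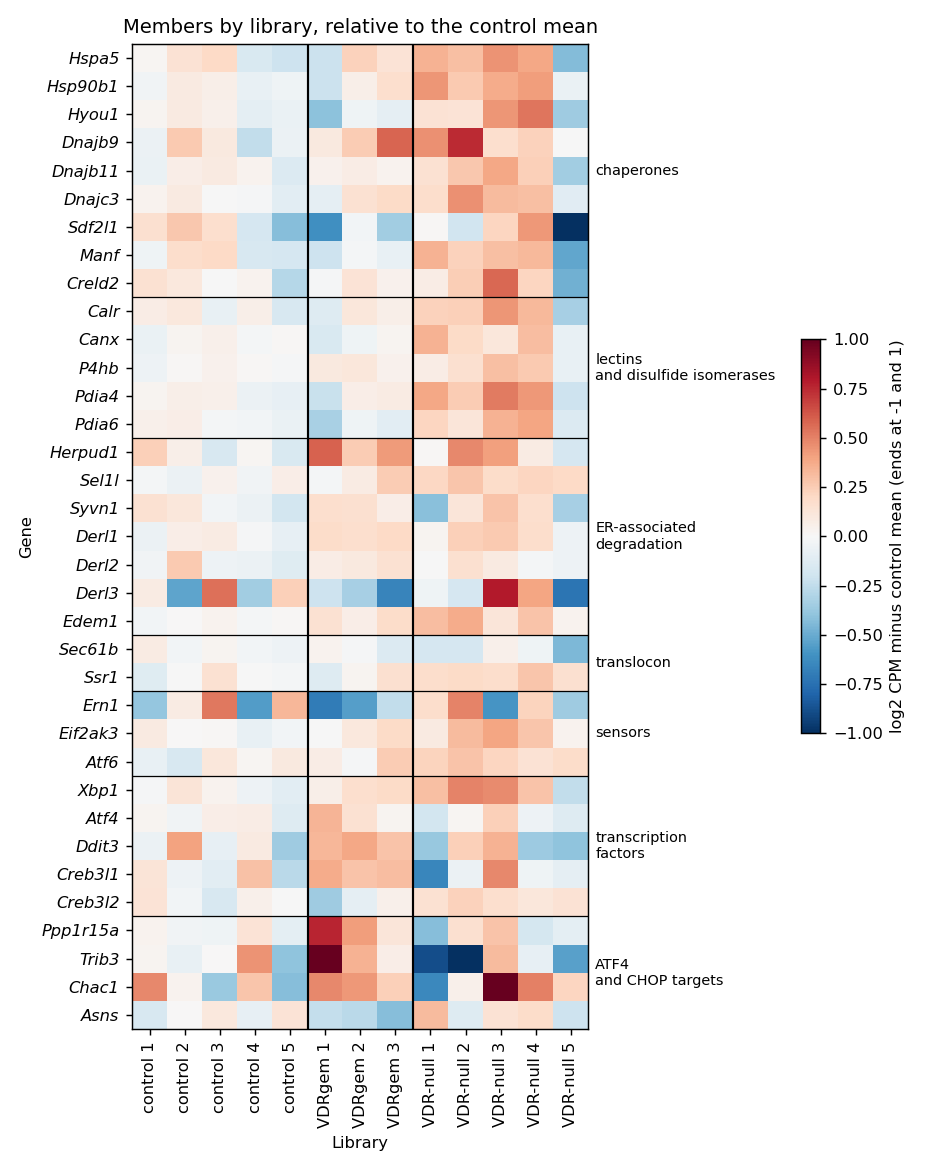
Each of the 35 genes (rows, grouped by role) in each of the 13 libraries (columns), as log2 CPM minus the mean of the controls, with red higher and blue lower and the colours ending at -1 and 1. The Hspa5, Hsp90b1, Pdia4 and Pdia6 rows are red in VDR-null 1 to 4 and blue in VDR-null 5, and VDRgem 1 is red for Ppp1r15a and Trib3.

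In VDR-null incisors against control, no gene of the 35 passed an adjusted p of 0.05 in edgeR's quasi-likelihood test with Benjamini-Hochberg adjustment, where 1.33% of all genes did. That share depended on single libraries: it was between 0.0333% and 0.225% without control 1, 2, 3 or 4, VDR-null 1 or 2, or VDRgem 2, and reached 3.75% without VDRgem 1 or 3. At an unadjusted p under 0.05, 11 of 35 were higher and 0 lower, against 11.7% and 11.1% of all genes. DESeq2 called 3 (Hsp90b1, Sel1l and Edem1, all higher) where it called 9.23% of all genes, and limma-voom called 0 where it called 1.39%. The log2 fold change was above 0 for 26 of the 35, where 51.5% of all genes were, and its median was 0.16 against 0.01 over all genes. The selection stated for the study, an unadjusted p under 0.05 with an absolute log2 fold change over 0.3, took Dnajb9 alone of the 35, where it took 13.2% of all genes.

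Chaperones lay on the higher side in VDR-null. Hspa5, the master chaperone BiP, was at 765, 834, 868, 680 and 657 CPM in controls and at 962, 933, 1033, 988 and 561 CPM in VDR-null. VDR-null 1 to 4 were thus above every control and VDR-null 5 was below all of them. The log2 fold change was 0.23 (SE 0.15, edgeR adjusted p = 0.377), and its 95% interval ran from -0.09 to 0.56. Hsp90b1 was at 706, 771, 753, 688 and 704 CPM in controls and at 983, 869, 934, 969 and 690 CPM in VDR-null. Again VDR-null 5 alone fell into the control range, and the log2 fold change was 0.30 (SE 0.10, edgeR adjusted p = 0.117, exact permutation p = 0.0397). Dnajc3, a co-chaperone that also restrains PERK, had a log2 fold change of 0.24 (SE 0.09) and Dnajb9, the co-chaperone ERdj4, one of 0.34 (SE 0.14), with edgeR adjusted p of 0.158 and 0.186. The other 5 ranged from -0.07 for Sdf2l1, a co-chaperone component, to 0.21 for Hyou1, the nucleotide exchange factor of BiP. Dnajb11, Manf and Creld2 each had 0.16.

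All 5 lectins and isomerases had log2 fold changes above 0 in VDR-null, from 0.15 to 0.30. P4hb was at 1201, 1253, 1281, 1259 and 1238 CPM in controls and at 1312, 1392, 1534, 1495 and 1187 CPM in VDR-null. The 4 highest VDR-null libraries exceeded all controls, VDR-null 5 lay below them, and the log2 fold change was 0.15 (SE 0.08, edgeR adjusted p = 0.272). Pdia4 and Pdia6, which reshuffle disulfide bonds, had 0.30 (SE 0.12, edgeR adjusted p = 0.149) and 0.20 (SE 0.10, 0.237), and the lectins Calr and Canx 0.20 and 0.18. Among the 14 chaperones, lectins and isomerases together, 13 were above 0 with a median of 0.20, and the count was 13 or 14 under each of 23 alternatives.

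Of the degradation genes, which retrieve misfolded proteins for the proteasome, 2 lay above every control in all 5 VDR-null libraries. Sel1l, the adaptor of the ubiquitin ligase HRD1, was at 159, 155, 167, 157 and 169 CPM in controls and at 186, 196, 183, 188 and 185 CPM in VDR-null, with no overlap. It had a log2 fold change of 0.22 (SE 0.06, edgeR adjusted p = 0.0693, exact permutation p = 0.00794, the smallest that 5 against 5 allows). Edem1, a mannosidase-like factor that marks glycoproteins for disposal, was at 51.9, 53.0, 54.2, 52.2 and 53.4 CPM in controls and at 65.7, 68.6, 57.6, 64.6 and 54.4 CPM in VDR-null. Every VDR-null library lay above every control here too, and the log2 fold change was 0.23 (SE 0.07, edgeR adjusted p = 0.0739, exact permutation p = 0.00794). The ligase gene Syvn1 itself had -0.01, and the Derlin channel genes Derl1, Derl2 and Derl3 had 0.13, 0.03 and 0.05. Herpud1, an ER membrane protein of the same complex, had 0.18 (SE 0.12).

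Ssr1 and Atf6 also lay above every control in all 5 VDR-null libraries, making 4 of 35 where 3.91% of all genes did so. Ssr1 encodes a subunit of the translocon-associated complex. It was at 232.7, 252.4, 282.1, 252.6 and 250.8 CPM in controls and at 286.1, 289.6, 287.1, 308.1 and 282.7 CPM in VDR-null, and the log2 fold change was 0.19 (SE 0.07, edgeR adjusted p = 0.130). The sensor Atf6 was at 75.3, 70.9, 85.8, 80.2 and 84.6 CPM in controls and at 92.2, 96.4, 91.9, 87.7 and 89.8 CPM in VDR-null. All mutant libraries were again the higher ones, with a log2 fold change of 0.21 (SE 0.07, edgeR adjusted p = 0.103). The PERK gene Eif2ak3 was at 63.2, 59.5, 59.8, 56.3 and 58.1 CPM in controls and at 63.1, 73.9, 77.9, 71.9 and 60.9 CPM in VDR-null. Its groups overlapped, and the log2 fold change was 0.23 (SE 0.07, edgeR adjusted p = 0.0976). Ern1, the gene of IRE1, had -0.01 (SE 0.23) and varied widely within each group. Sec61b, a subunit of the channel itself, had -0.15 (SE 0.08).

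Of the transcription factors, Xbp1 had a log2 fold change of 0.28 (SE 0.11, edgeR adjusted p = 0.165) in VDR-null. Its libraries were at 168, 185, 174, 165 and 158 CPM in controls and at 209, 239, 236, 207 and 143 CPM in VDR-null. VDR-null 1 to 4 exceeded all controls and VDR-null 5 was below them, the pattern already seen for Hspa5. Splicing of Xbp1 by IRE1, which makes the active factor, cannot be read from counts per gene. Atf4, Ddit3 (CHOP) and Creb3l1 had -0.01, -0.09 and -0.04, and Creb3l2, a relative of OASIS, had 0.16. The 4 ATF4 and CHOP targets ranged from -0.43 for Trib3, a pseudokinase, to 0.35 for Chac1, which degrades glutathione, and none passed an unadjusted p of 0.05.

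Without VDR-null 5, edgeR called Pdia4 (log2 fold change 0.40, adjusted p = 0.0403) and Xbp1 (0.39, adjusted p = 0.0335), where 0.858% of all genes were called. At an unadjusted p under 0.05, 20 of 35 genes were then higher, where 11.3% of all genes were, and the median was 0.22. All 14 chaperones, lectins and isomerases then lay above 0, with a median of 0.30. VDR-null 5 was singled out by its low values for these same genes, so leaving it out raises most of them by construction. Leaving out VDR-null 1, 2, 3 or 4 instead gave 11, 7, 8 and 8 genes higher at that threshold. The shares of all genes were 10.7%, 8.47%, 11.6% and 11.8%. The medians over the 35 genes were 0.17, 0.13, 0.12 and 0.14, and edgeR called 0 of the 35 each time. VDR-null 5 did not stand outside its group in the odontoblast markers, whose mean log2 CPM over 7 genes was 11.71 in it and 11.20 to 12.23 over the group. Its ameloblast mean over 8 genes, 9.72, was the lowest of the group, which reached 10.81, and a control library was lower at 9.66. Over 10 immediate early genes, described below, its mean was 2.24, the lowest of all 13 libraries. Skeletal muscle RNA varied widely in VDR-null. The mean log2 CPM of 15 muscle genes was -2.15, -0.78, 4.72, 0.25 and 1.42 in VDR-null 1 to 5 and -1.27 to 0.46 over the controls, and their summed level was 6.42 to 802 CPM against 10.1 to 36.0 CPM. All 14 muscle genes that were tested had log2 fold changes above 0, with a median of 3.29, and 12 were higher at an unadjusted p under 0.05, but none passed the adjusted one. VDR-null 3 had the most muscle RNA and the largest share of the 35 genes. VDR-null 1 had less muscle RNA than any control and lay above every control for Hspa5, Hsp90b1 and Pdia4. These are values of single libraries. The part of cell make-up or of the other marker differences in the values of VDR-null was not tested.

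**Figure D3:**
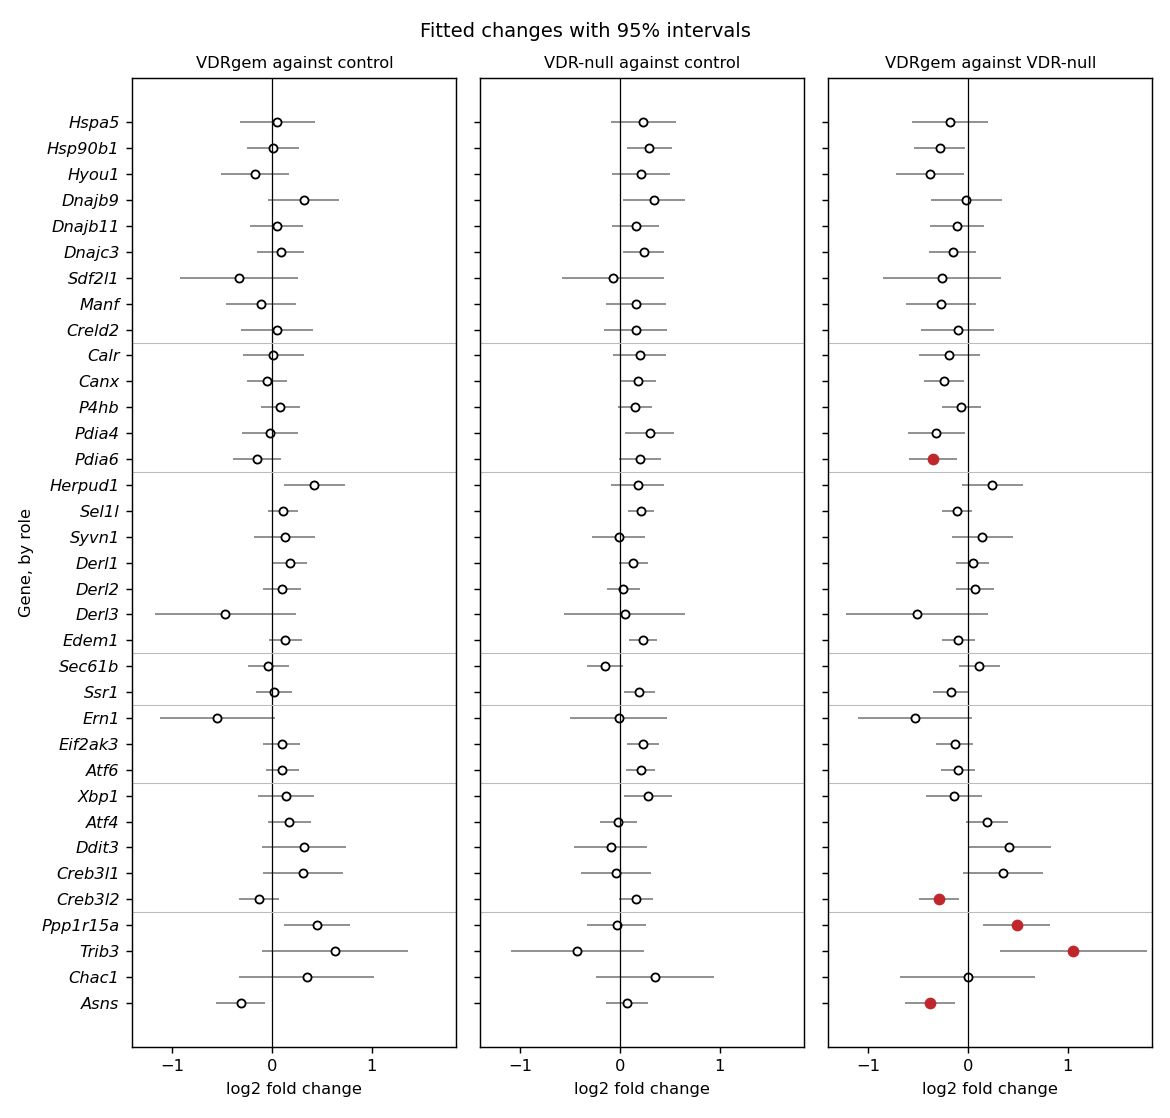
Fitted log2 fold change of each gene in the 3 comparisons, with lines for the 95% interval and grey rules between role groups. Red filled points passed an adjusted p of 0.05 and open points did not. Only Pdia6, Creb3l2, Ppp1r15a, Trib3 and Asns are red, all in the comparison of VDRgem with VDR-null.

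In VDRgem incisors against control, no gene of the 35 was called by edgeR either, where 8.62% of all genes were. At an unadjusted p under 0.05, Herpud1, Derl1 and Ppp1r15a were higher and Asns was lower, 4 of 35 against 23.9% of all genes. DESeq2 called Herpud1 and Ppp1r15a where it called 13% of all genes, and limma-voom called 0 where it called 5.5%. Without VDRgem 1 edgeR called 0.364% of all genes and again no gene of the 35. The median log2 fold change was 0.08 against 0.00 over all genes, and 24 of the 35 were above 0, where 50.1% of all genes were. The study's stated selection took Herpud1, Ppp1r15a and Asns, where it took 19% of all genes. Both mutants were compared with the same 5 controls, so the 2 sets of values are not independent.

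The folding genes lay near control in VDRgem. Hspa5 was at 651, 887 and 830 CPM, from just below to just above the control range, and the log2 fold change was 0.05 (95% interval -0.33 to 0.43). Hsp90b1 was at 624, 752 and 814 CPM with 0.01 (-0.25 to 0.27), and Calr had 0.01 (-0.29 to 0.32). Over the 14 chaperones, lectins and isomerases the median was 0.01, with 8 above 0, and that count ran from 1 to 10 over the alternatives. P4hb was at 1332, 1345 and 1288 CPM, above every control, yet the log2 fold change was only 0.08 (SE 0.09, edgeR adjusted p = 0.628). For Dnajb9 it was 0.32 (SE 0.16) and for Sdf2l1 -0.33 (SE 0.28), with intervals that included 0. These intervals leave room for changes of either sign in most of the group.

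In all VDRgem libraries 4 of the 35 genes lay above every control, a count near the share of 9.01% over all genes. They were P4hb and the degradation genes Herpud1, Derl1 and Edem1. None of the 7 degradation genes was called. Herpud1 was at 43.3, 38.3, 33.0, 37.2 and 33.1 CPM in controls and at 55.4, 43.9 and 49.3 CPM in VDRgem, and the lowest mutant library just exceeded the highest control. Its log2 fold change was 0.42 (SE 0.14, edgeR adjusted p = 0.0827, exact permutation p = 0.0179, the smallest that 3 against 5 allows). Derl1, which forms part of the channel for export to the cytosol, was at 66.2, 72.1, 73.2, 68.6 and 65.2 CPM in controls and at 78.5, 77.3 and 79.2 CPM in VDRgem. The difference was small and steady, with a log2 fold change of 0.18 (SE 0.08, edgeR adjusted p = 0.171). Edem1 had 0.13, Syvn1 0.13, Sel1l 0.11 and Derl2 0.10, while Derl3, near 1 CPM, had -0.47 (SE 0.33).

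Sensors and transcription factors gave no call in VDRgem. Eif2ak3 was at 59.1, 63.8 and 67.6 CPM, within or just above the control range. Atf6 had a log2 fold change of 0.11 and Ern1 one of -0.55 (SE 0.27, edgeR adjusted p = 0.232). Creb3l1 was at 307, 271, 262, 345 and 233 CPM in controls, at 363, 343 and 348 CPM in VDRgem and at 179, 270, 392, 273 and 264 CPM in VDR-null. The 3 VDRgem libraries lay close to or above the highest control and within the wide VDR-null range, with log2 fold changes of 0.31 (SE 0.19, edgeR adjusted p = 0.341) for VDRgem and -0.04 for VDR-null. Atf4 had 0.18 and Ddit3 0.32 in VDRgem, with edgeR adjusted p of 0.311 and 0.346. Xbp1 had 0.14 and Creb3l2 -0.13. The translocon genes Ssr1, at 232, 258 and 284 CPM, and Sec61b had 0.02 and -0.04.

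The direct comparison of the 2 mutants was the one in which edgeR, fitted to all 13 libraries, called genes of the 35. In its quasi-likelihood test 5 of the 35 genes passed an adjusted p of 0.05, where 18.8% of all genes did: Ppp1r15a and Trib3 were higher in VDRgem, and Pdia6, Creb3l2 and Asns lower. The 2 higher and 3 lower genes compare with 10.6% and 8.18% of all genes. DESeq2 and limma-voom called the same 5. The median log2 fold change was -0.11 against -0.02 over all genes, and 10 of the 35 were above 0, where 47.1% of all genes were. The study's stated selection took 6 of the 35, where it took 27.5% of all genes.

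Pdia6, an isomerase that also acts on IRE1 and PERK, lies on chromosome 12 at 17266545 to 17284770 (plus strand, mm10, protein-coding) and carries the ERSE letters shown above. It was at 421, 426, 400, 398 and 387 CPM in controls, at 325, 395 and 378 CPM in VDRgem and at 472, 441, 517, 534 and 369 CPM in VDR-null. The mutants lay on opposite sides of the controls by their means and overlapped only through VDR-null 5. The fitted difference, VDRgem minus VDR-null, was -0.35 on the log2 scale (SE 0.11, edgeR adjusted p = 0.0449, exact permutation p = 0.0893).

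Creb3l2 encodes BBF2H7, a membrane-bound factor known to be needed for secretion of cartilage matrix, and lies on chromosome 6 at 37327255 to 37442146 (minus strand). It was at 359, 321, 293, 338 and 326 CPM in controls, at 255, 306 and 338 CPM in VDRgem and at 363, 383, 367, 353 and 362 CPM in VDR-null. Every VDRgem library lay below every VDR-null library, and VDRgem 1 was the lowest of all. The log2 fold change was -0.29 (SE 0.09, edgeR adjusted p = 0.0477, exact permutation p = 0.0179).

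Asns, the asparagine synthetase gene, lies on chromosome 6 at 7675169 to 7693254 (minus strand) and has the amino acid response letters just before its start. Its libraries were at 38.5, 43.2, 46.2, 40.7 and 47.2 CPM in controls, at 36.5, 35.7 and 32.0 CPM in VDRgem and at 53.6, 39.4, 47.6, 48.8 and 37.3 CPM in VDR-null. All VDRgem libraries lay below all others, and Asns was the 1 gene of the 35 below every control, where 10.3% of all genes were. VDRgem minus VDR-null was -0.38 on the log2 scale (SE 0.12, edgeR adjusted p = 0.0363, exact permutation p = 0.0357). Against control it had -0.31 (SE 0.12, edgeR adjusted p = 0.112). With Creb3l2, Asns was 1 of 2 genes of the 35 whose VDRgem values lay below every VDR-null value, where 8.84% of all genes did so.

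The other called targets of the integrated stress response went the opposite way. Ppp1r15a encodes GADD34, which restores translation after PERK has lowered it, and lies on chromosome 7 at 45522916 to 45526268 (minus strand). It was at 24.8, 23.7, 23.5, 26.7 and 22.6 CPM in controls, at 41.1, 32.4 and 26.3 CPM in VDRgem and at 18.1, 27.1, 29.5, 21.5 and 22.6 CPM in VDR-null. VDRgem 1 and 2 exceeded all other libraries and VDRgem 3 was inside both other ranges. The log2 fold change was 0.49 against VDR-null (SE 0.15, edgeR adjusted p = 0.0427, exact permutation p = 0.0714) and 0.45 against control (SE 0.15, edgeR adjusted p = 0.0878). Trib3, on chromosome 2 at 152337422 to 152344032 (minus strand), was at 1.32, 1.23, 1.30, 1.77 and 0.980 CPM in controls, at 3.15, 1.65 and 1.36 CPM in VDRgem and at 0.702, 0.573, 1.62, 1.22 and 0.891 CPM in VDR-null. Only VDRgem 1 lay outside the other groups. The log2 fold change was 1.06 (SE 0.34, edgeR adjusted p = 0.0455, exact permutation p = 0.0536). Chac1, the remaining target, had -0.00 (SE 0.32).

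**Figure D4:**
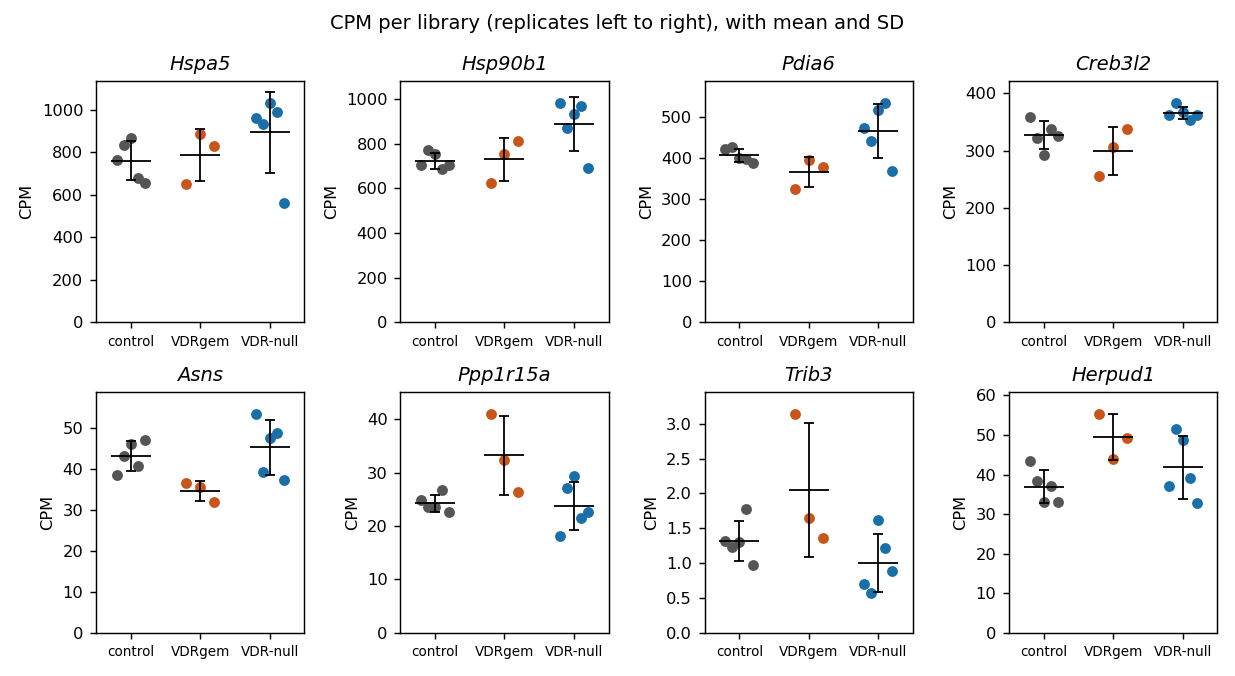
CPM of 8 genes in each library (points, replicates from left to right within a group) with the group mean and SD (black), for control, VDRgem and VDR-null. VDR-null 5 is the low blue point of Hspa5 at 561 CPM and of Hsp90b1 at 690 CPM, and VDRgem 1 is the high orange point of Ppp1r15a at 41.1 CPM and of Trib3 at 3.15 CPM.

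All 14 chaperones, lectins and isomerases had lower fitted levels in VDRgem than in VDR-null, with a median log2 fold change of -0.21. At an unadjusted p under 0.05 there were 5 of the 14, Hsp90b1 (-0.28), Hyou1 (-0.38), Canx (-0.24), Pdia4 (-0.32) and Pdia6, where 17.2% of all genes were lower at that threshold. The count of 14 was 13 or 14 under the 23 alternatives. Among the 9 genes with ERSE letters 8 were below 0, with a median of -0.19, and among the 21 with a window lacking them 14 were, with a median of -0.10. Hspa5, Hsp90b1, Dnajc3, Creld2, Calr, Canx and Pdia6 of the ERSE genes belong to the 14 genes above. Dnajb9, Dnajb11, Sdf2l1, P4hb and Pdia4 of those 14 have a window without the letters. The split thus largely follows the role groups and is not a separate result about the element. Degradation genes had a median of 0.05. The sensors had -0.53 for Ern1, -0.13 for Eif2ak3 and -0.10 for Atf6, and the factors Ddit3, Creb3l1 and Atf4 had 0.41, 0.35 and 0.19, none of them called.

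The calls between the mutants depended on single libraries. Without VDR-null 5, edgeR called 7 genes, where it called 13.8% of all genes, and all were lower in VDRgem: Hsp90b1, Hyou1, Manf, Canx, Pdia4, Pdia6 and Asns, from -0.30 to -0.50 on the log2 scale, and Creb3l2, Ppp1r15a and Trib3 were no longer called. Without VDRgem 1 no gene was called, where 2.39% of all genes were, and the log2 fold changes of Ppp1r15a and Trib3 were 0.30 and 0.61 (edgeR adjusted p = 0.273 and 0.318), while that of Asns was -0.43 (0.0927). Leaving out control 3, VDRgem 2, VDR-null 1 or VDR-null 4 also left 0 calls, where 15.9%, 9.19%, 11.6% and 14.4% of all genes passed. Leaving out control 1, 2, 4 or 5 left Asns alone, where 15.9%, 15.5%, 15.2% and 16.6% of all genes passed. Without VDR-null 3 there were 5 calls (23.2% of all genes), with Atf4 and Creb3l1 among the 4 higher in VDRgem. Without VDR-null 2 there were 2 calls (17.4% of all genes) and without VDRgem 3 there were 3 (25.2%).

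Immediate early genes, which respond within minutes to handling or signals, and genes of oral keratinocytes differed most in the VDRgem libraries in which Ppp1r15a and Trib3 were high. The list of 10 called immediate early here includes the heat shock genes Hspa1a and Hspa1b. The mean log2 CPM of 10 immediate early genes was 5.05, 4.20 and 3.24 in VDRgem, 2.24 to 3.06 in VDR-null and 2.59 to 3.07 in controls, and 7 of the 10 rose in VDRgem against control and 10 of 10 against VDR-null, where 4.8% and 10.6% of all genes rose. Their order over the 3 VDRgem libraries is that of Ppp1r15a and Trib3. The oral keratinocyte and skeletal muscle genes given next have the same order, and 3 libraries cannot tell these lists apart. For 14 oral keratinocyte genes it was 7.92, 6.27 and 2.95 in VDRgem, -0.17 to 1.77 in VDR-null and 0.13 to 2.97 in controls. Their summed level was 333 to 17524 CPM in VDRgem, 38.2 to 564 CPM in controls and 31.7 to 147 CPM in VDR-null. Their log2 fold changes were called for 12 of 13 tested against control and 13 of 13 against VDR-null, all higher. Genes of the dental follicle and periodontal ligament were higher in VDRgem as well. The mean log2 CPM of 6 such genes was 8.46, 7.85 and 7.93 in VDRgem, 6.58 to 7.38 in VDR-null and 6.79 to 7.19 in controls, and 6 of 6 rose against control (median 1.02 on the log2 scale) and 5 of 6 against VDR-null. The mean of 15 skeletal muscle genes was 3.36, 1.13 and 0.68 in VDRgem, above every control, and 1 of 14 tested rose against control. All 8 cell cycle genes fell in VDRgem against both other groups, where 3.82% and 8.18% of all genes fell. Of 8 ameloblast genes, 3 rose in VDRgem against control and 3 against VDR-null, and 0 fell. Their median log2 fold changes were 0.30 and 0.44, with 2 of the 8 below 0 each time. Against VDR-null, calls on the higher side also came from 2 of 6 osteoclast, 2 of 6 erythroid, 1 of 7 odontoblast and 1 of 6 osteoblast genes. Against control these 4 lists gave 0 calls. The part of these differences in the values of the ER genes was not tested. Plasma cells, which are rich in the same folding genes, left little RNA: the summed level of 9 markers was 359 to 415 CPM in controls, 419 to 596 in VDRgem and 287 to 346 in VDR-null, nearly all of it Sdc1, which epithelia also make. The plasma cell genes Jchain, Mzb1 and Tnfrsf17 were at 0.215 CPM or less in all libraries.

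**Figure D5:**
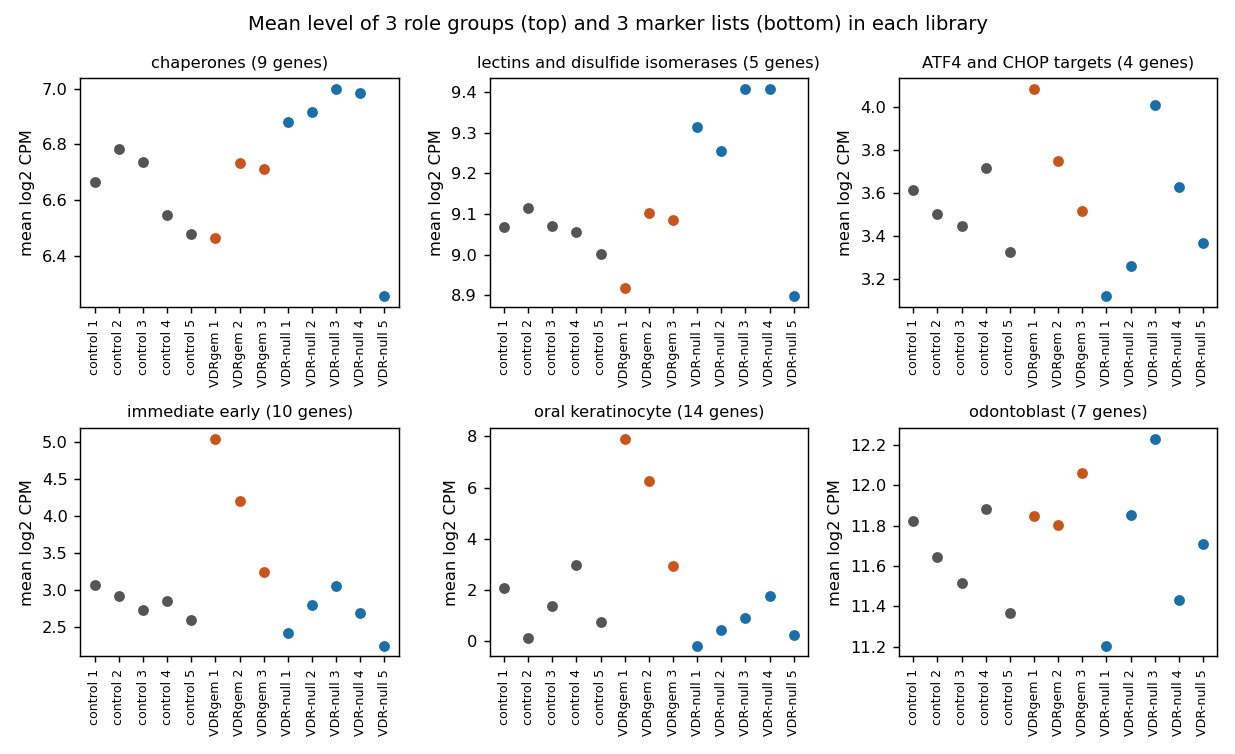
Mean log2 CPM in each library of 3 role groups of the ER genes (top) and 3 marker lists (bottom), with control in grey, VDRgem in orange and VDR-null in blue. Chaperones and isomerases are highest in VDR-null 1 to 4 and lowest in VDR-null 5, and the immediate early and keratinocyte lists are highest in VDRgem 1.

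The same pathway was read more widely in 7 lists with 119 further genes, of which 118 were tested. In VDR-null against control, 5 rose, where 0.678% of all genes did, and 0 fell, and 38 were higher and 6 lower at an unadjusted p under 0.05, where 11.7% and 11.1% of all genes were. The calls rested on single libraries: 0 of the 118 were called without control 1, 2, 3 or 4, VDR-null 1 or 2, or VDRgem 2. In those fits 0.0333% to 0.225% of all genes were called. Without VDRgem 1, 10 rose and 1 fell, where 1.73% and 2.02% of all genes did. The counts were 8 and 1 without VDRgem 3 (1.55% and 2.2% of all genes), and 5 and 3 without VDR-null 3 (1.08% and 1.68%). Without VDR-null 5 they were 7 and 0 (0.521% and 0.338%). Those that rose with all libraries serve entry, glycosylation and export: Tram1 (0.37 on the log2 scale, SE 0.08, edgeR adjusted p = 0.0385) and Ssr3 (0.34) of 19 translocation genes, the oligosaccharyltransferase genes Stt3a (0.42, SE 0.08, adjusted p = 0.0340) and Ostc (0.33) of 11 N-glycosylation genes, and Mia2 (0.37, SE 0.07, adjusted p = 0.0298), a receptor for cargo export, of 21 collagen folding and export genes. Stt3a was at 240, 249, 266, 235 and 271 CPM in controls and at 356, 344, 323, 348 and 315 CPM in VDR-null, with no overlap and with VDR-null 5 the lowest of its group. With all libraries in edgeR, none of 19 folding, 13 degradation, 27 integrated stress response and 8 tested sensor processing genes passed. That depended on the method. DESeq2 called 23 of the 118 higher and 4 lower, where it called 4.4% and 4.83% of all genes. Its calls included Erp44 and Uggt1 of the folding genes and Edem3 of the degradation genes. Ddit4 of the integrated stress response and Bloc1s1 of sensor processing were also among them. Limma-voom called the same 5 as edgeR.

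In VDRgem against control, 3 of the 118 rose, where 4.8% of all genes did, and 0 fell. They were Atf3 (log2 fold change 1.36, SE 0.27, edgeR adjusted p = 0.0122), a stress-induced factor that also stands in the immediate early list, P4ha3 (0.65), a collagen prolyl hydroxylase subunit, and Erp44 (0.30), a thiol retention factor. Atf3 was at 9.02, 3.68 and 3.31 CPM in VDRgem against 1.94 to 2.18 CPM in controls. As for Ppp1r15a, VDRgem 1 was the highest. Without that library 0 of the 118 were called, where 0.364% of all genes were. Without VDR-null 2 there were 4 that rose and 1 that fell, where 5.14% and 4.51% of all genes did.

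Between the mutants 5 of the 118 were higher in VDRgem and 13 lower, where 10.6% and 8.18% of all genes were. Without VDRgem 1 the counts were 2 and 0, where 1.77% and 0.623% of all genes were called. Without VDRgem 2 they were 4 and 3, where 6.67% and 2.52% of all genes were. Without VDR-null 1 they were 4 and 6 (7.29% and 4.29% of all genes), and without VDR-null 4 they were 5 and 4 (9% and 5.4%). Without VDR-null 5 they were 4 and 16 (7.99% and 5.81%). Of the 27 integrated stress response genes, Cebpb (1.63) and Atf3 (1.29) were higher, and Psat1 (-0.44), the serine synthesis enzyme that like Asns is a target of ATF4, was lower with Vldlr and Ppp1r15b. Stt3a (-0.42), Alg2 (-0.30) and Ostc (-0.29) of the N-glycosylation genes were lower, as were Spcs3 (-0.35), Spcs2 (-0.34) and Tram1 of the translocation genes, Dnajc10 (-0.22) of the folding genes and Faf2 (-0.21) of the degradation genes. Srp54a was higher, at 1.25, 1.76 and 1.48 CPM in VDRgem and 0.323 to 0.808 CPM in VDR-null, but near-identical copies of this gene make its count uncertain. Among the collagen genes P4ha3 (0.54) and Plod3 were higher and Sec23a (-0.33) and Plod2 (-0.67) lower.

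The genes that most resembled the 35 over the 13 libraries were Rpn1, Slc35b1, Txndc11, Clptm1l and Tspan13, with Pearson r of 0.94, 0.92, 0.89, 0.89 and 0.89 between their log2 CPM and the mean of the 35 standardised levels. Rpn1 encodes a subunit of the oligosaccharyltransferase. These correlations run over libraries of 3 groups that share their scaling, and VDR-null 5 at -1.03 and VDR-null 3 at 1.11 set the ends of the mean they follow.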

How the data were processed

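RNA-seq counts were analysed for 13 whole-incisor libraries. The protocol was stranded poly-A RNA-seq with 300 ng of RNA as input and 12 cycles of PCR, per the labels. The authors deposited raw counts per Ensembl gene, and the submitters' processing notes name mm10, HTSeq 0.6.1p1, STAR 2.5.3a and bcl2fastq 2.20.0.422. For annotation, counting mode and strand, the setting is not given in the sources used here. Symbols, coordinates and exon lengths came from GENCODE M21 (GRCm38), and promoter windows from RefSeq.

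All libraries entered 1 fit in edgeR 4.0.16 (R 4.3.3), with a mean per group, TMM scaling and filterByExpr at a minimum count of 10, which kept 17837 genes. The quasi-likelihood test was adjusted by Benjamini-Hochberg over all of them, and an adjusted p under 0.05 was called. Intervals are 95%. Single genes were also tested by a two-sided exact permutation test of log2 CPM (prior count 2). Lists are summarised by their mean log2 CPM. Alternatives were DESeq2 1.42.0, limma-voom (limma 3.58.1), other scalings, filters and thresholds, only the groups compared, and leaving out libraries. The edgeR test was tried on simulated counts in which some genes of VDRgem were given absolute log2 fold changes of 1 or 2. Most changes described here are smaller, and no outlying library was simulated, so the trial does not cover them.

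The members, the wider lists and the marker lists were chosen with earlier results of these data known. Library values are given for members called and for the member of each role group with the highest level per kilobase in control. Of the wider lists up to 3 called genes per comparison are named by smallest p. Library values of Hsp90b1, Sel1l, Edem1, Atf6, Xbp1, Herpud1, Stt3a and Atf3, and the names Tram1, Vldlr, Ppp1r15b and Plod3, were added after values were seen.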

Additional observations from a re-analysis of the deposited data

Results flagged for a closer look

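In groups of 5 libraries, 4 values of 70 tested stood far from the rest of their group by Dixon's criterion, which chance alone meets in about 1 group in 20. VDR-null 5 was the lowest of its group for Hspa5 at 561 CPM, where the next library was at 933 CPM, and for Manf, a secreted ER stress protein, at 65.3 CPM, where the next was at 110 CPM. VDR-null 4 was the highest of its group for Ssr1 at 308 CPM, and control 2 was the highest control for Derl2 at 34.2 CPM.

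The effects of the 2 mutants differed by the edgeR contrast between them for 5 of the 35 genes, where 18.8% of all genes did. VDRgem minus VDR-null was -0.35 on the log2 scale for Pdia6, -0.29 for Creb3l2, 0.49 for Ppp1r15a, 1.06 for Trib3 and -0.38 for Asns, and each lost its call without VDRgem 1.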

How the results depend on the processing

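Of the 35 genes, those called numbered 0 to 1 for VDRgem against control, 0 to 2 for VDR-null against control and 0 to 7 for VDRgem against VDR-null over fits that each left out 1 library. The shares of all genes called in those fits were 0.364% to 11.1%, 0.0333% to 3.75% and 2.39% to 25.2%. Without VDRgem 1 and 2 together the median log2 fold change of the 35 genes between the mutants was -0.096. That fit takes the spread of the lone VDRgem library from the other groups. DESeq2 called 2 genes for VDRgem and 3 for VDR-null against control, where it called 13% and 9.23% of all genes. Fitting only the groups compared gave 2 for VDRgem against control and 0 between the mutants, where 11.2% and 4.3% of all genes were called. Leaving out the low-count filter gave 2 between the mutants, where 8.19% of all genes were called. Scaling by library totals alone moved the median of all genes by -0.17 in VDRgem against control. There it gave 1 call, where it called 12.1% of all genes, and a median over the 35 genes of -0.085, with 9 of 35 above 0. Between the mutants it gave 13 calls, all lower, where it called 27.6% of all genes and the median of all genes was -0.19. The 5 genes called between the mutants kept their sign under all 23 alternatives, while the median over the 35 genes for VDRgem against control did not under library totals. The alternative threshold uses the same fit, so it cannot change a sign or a median. Leaving out a control touches the comparison between the mutants only through the filter, the scaling and the shared spread. An unadjusted p under 0.05 with an absolute log2 fold change over 0.3, the selection stated for the study, gave 3 and 1 genes against control. It took 19% and 13.2% of all genes there.

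No paired analysis was possible because the labels give no replicate numbers shared between groups. The 3 VDRgem libraries limit the precision: against control, Derl1 at 0.18 (SE 0.08) and Ern1 at -0.55 (SE 0.27) were not called.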
